A study of Homo sapiens with 8 samples.

Results

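INHBE, ADM2, GDF15, STC2, VEGFA and INHBA encode secreted hormones and growth factors of the cellular stress response. These 6 genes were taken by name from the 23393 gene symbols of a read-count table, and all 6 were among the 15262 genes that passed the filter on low counts. They were chosen by a list drawn up with their counts and starvation responses in these libraries already known, so their levels, fold changes and counts of calls are given as a description, and no test is drawn from them. INHBE, with 4 to 12 counts in every other library, passed the filter through arginine-starved parental cells. RNA was sequenced from MDA-MB-231, an established human breast cancer line with little ASS1, the enzyme needed to make arginine. There were 2 libraries each of unstarved (control) and arginine-starved parental cells, and unstarved and starved ρ0 cells, with starvation lasting 48 h. All 4 groups were grown in high-glucose DMEM with fetal bovine serum and antibiotics. The labels describe starvation as arginine deiminase (ADI), an arginine-degrading enzyme, added at 0.3 µg/mL to full medium, whereas the methods of the study describe medium lacking arginine. The ρ0 cells, depleted of mitochondrial DNA, were 1 clone, number 27, and per the methods were kept with ethidium bromide, uridine and sodium pyruvate. A difference between the lines therefore cannot be told apart from a difference between this clone and its parental population, or from the effect of those supplements.

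Cells that lack an amino acid activate the kinase GCN2, which phosphorylates the translation factor eIF2α and lets the transcription factor ATF4 be made. ATF4, with partners such as CHOP (encoded by DDIT3), raises the transcription of amino acid transport and synthesis genes and of several secreted factors, which carry the stress signal out of the cell. Mitochondrial failure can activate the same pathway, and GDF15 is widely measured as a blood marker of mitochondrial disease.

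The libraries held 25259503 to 31022155 counts. Levels are given as CPM (counts scaled to a common library size) after scaling by edgeR's trimmed mean of M-values (TMM), and a gene counts as called where its adjusted p is under 0.05 and its log2 fold change lies outside -1 to 1. The biological coefficient of variation, the relative spread between libraries of a group, was 25.1% in the ρ0 control pair, against 5.16% in parental controls, 2.29% in starved parental cells and 1.84% in starved ρ0 cells. The ρ0 control libraries thus stood farther apart than any other pair, and log2 values of the 6 factors that rest on them are given with and without each. For other genes, calls that end when a library is left out are marked. Genes named after their values were seen were not checked in this way. VIM, CD44 and LGALS1, which mark this mesenchymal-like line, were at 298 CPM or more in every library. The breast hormone receptor genes ESR1 and PGR were at or near 0. The luminal breast gene GATA3 was not, with means of 4.52 CPM in parental controls and 5.18 CPM in starved parental cells. In ρ0 cells GATA3 averaged 16.5 CPM in controls and 10.4 CPM under starvation. The epithelial gene EPCAM averaged 23.1 CPM in ρ0 controls and 0.470 CPM in parental controls, and ASS1 averaged 8.93 and 0.202 CPM. In starved cells ASS1 averaged 22.7 CPM in ρ0 and 0.0552 CPM in parental cells. CDH1, another epithelial gene, averaged 4.54 CPM in starved ρ0 cells and 0.0354 CPM in starved parental cells, and was higher still in ρ0 controls. Their part in the line differences below was not tested. None of the 13 protein-coding genes of the mitochondrial genome was in the table used here, so the ρ0 state could not be checked. The labels do not say whether libraries of a group came from separate cultures, so the spread between them may be technical. In bulk RNA, fewer cells of a kind and less RNA per cell cannot be told apart.

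The first 3 factors belong to the TGF-β superfamily. INHBA encodes the βA subunit, a pair of which forms activin A, a ligand that signals through SMAD2 and SMAD3. Its level was 6.63 and 4.83 CPM in the parental controls and 17.1 and 15.1 CPM in starved parental cells. In ρ0 cells it was 0.971 and 1.38 CPM in the controls and 2.23 and 2.15 CPM under starvation. Every ρ0 library, starved or not, lay below every parental library, and within each line the starved libraries lay above the controls. The log2 fold change with starvation was 1.49 (SE 0.20) in parental cells and 0.89 (SE 0.25) in ρ0 cells. Without ρ0 control replicate 1 the ρ0 value was 0.67, and without replicate 2 it was 1.19, past the fold threshold. In control cells INHBA was 4.84-fold lower in ρ0 than in parental cells (log2 -2.28, SE 0.24), the lowest control ratio of the 6 genes. That log2 value was -2.06 without ρ0 control replicate 1 and -2.51 without replicate 2.

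INHBE encodes the βE subunit, an activin subunit best known from liver. The parental control libraries held 9 and 12 counts and the starved ones 166 and 198, which is 0.270 and 0.417 CPM against 6.57 and 7.02 CPM. The ρ0 libraries stayed at 4 and 4 counts in controls and 10 and 9 under starvation, or 0.139 and 0.129 CPM against 0.338 and 0.373 CPM. Only starved parental cells stood well above the rest, and the starved ρ0 range lay inside the range of the unstarved parental libraries. The fold change was 19.8 in parental cells (log2 4.31, SE 0.25), the largest of the 6 genes in either line, and 2.60 in ρ0 cells (log2 1.38, SE 0.40). The ρ0 call rests on 4 to 10 counts per library, and was lost in 6 of the 8 fits that left out a library, all but those without a parental control, and with total-count scaling, DESeq2 and limma-voom weighted by group. The log2 value was 1.43 without ρ0 control replicate 1 and 1.34 without replicate 2. The lower control level of the ρ0 cells (log2 -1.32, SE 0.39) was likewise no longer called without ρ0 control replicate 1 (-1.36) or 2 (-1.21), without parental control replicate 2 (-0.996), with DESeq2 or with group weights.

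GDF15, a hormone that acts on the brainstem to lower appetite, was the only one of the 6 whose responses in the lines were nearly equal. Its level was 8.39 and 9.52 CPM in parental controls and 55.2 and 48.5 CPM under starvation. In ρ0 cells the controls were already at 55.9 and 53.9 CPM, and starvation was accompanied by 320.3 and 273 CPM. The unstarved ρ0 libraries fell within or just above the range of the starved parental ones, and the starved ρ0 libraries were the highest. Starvation gave 5.79-fold in parental cells (log2 2.53, SE 0.12) and 5.40-fold in ρ0 cells (log2 2.43, SE 0.12). The control ratio of ρ0 to parental cells was 6.13-fold (log2 2.62, SE 0.12), the highest of the 6. Without ρ0 control replicate 1 the ρ0 response was 2.46 and the control ratio 2.59 on the log2 scale, and without replicate 2 they were 2.42 and 2.70.

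**Figure D1:**
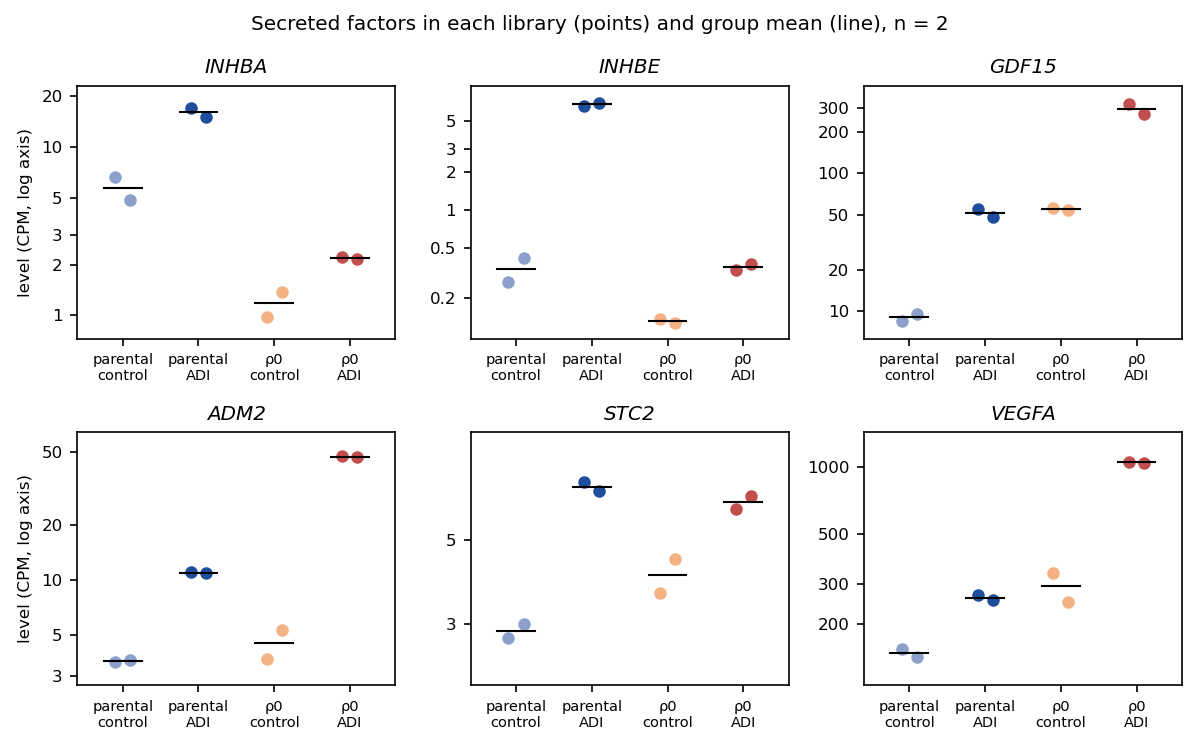
Level of each secreted factor in each library, in CPM on a log axis, with points for the 2 libraries of a group and a line at the group mean. Starved libraries lie above the controls of their line in all 6 panels. INHBE is high in starved parental cells (6.57 and 7.02 CPM), while ADM2, GDF15 and VEGFA are highest in starved ρ0 cells.

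ADM2 encodes adrenomedullin 2 (intermedin), a vasodilator peptide of the calcitonin family. Parental controls were at 3.57 and 3.65 CPM and starved parental cells at 11.0 and 10.9 CPM. The ρ0 controls were at 3.71 and 5.34 CPM and the starved ρ0 libraries at 47.3 and 47.1 CPM. Control levels of the lines were close, with the distance between group means 0.761 of their summed SDs, and the lines came apart under starvation. The fold change was 3.04 in parental cells (log2 1.61, SE 0.17) and 10.4 in ρ0 cells (log2 3.38, SE 0.17), the largest ρ0 response of the 6. It was 3.14 on the log2 scale without ρ0 control replicate 1 and 3.68 without replicate 2.

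STC2 encodes stanniocalcin 2, a secreted glycoprotein that inhibits the protease PAPPA and so keeps insulin-like growth factors (IGFs) bound. It was at 2.76 and 2.99 CPM in parental controls, 7.09 and 6.70 CPM in starved parental cells, 3.61 and 4.44 CPM in ρ0 controls and 6.02 and 6.50 CPM in starved ρ0 cells. It varied least of the 6, with the highest group mean 2.40 times the lowest, and the starved groups did not overlap but lay only 1.02 summed SDs apart. The log2 fold change was 1.26 (SE 0.17) in parental cells and 0.63 (SE 0.16) in ρ0 cells, under the fold threshold. The ρ0 value was 0.49 without ρ0 control replicate 1 and 0.80 without replicate 2.

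VEGFA, the main driver of blood vessel growth, had the most reads of the 6. It was at 154 and 143 CPM in parental controls and 269 and 255 CPM in starved parental cells. The ρ0 controls were at 338 and 249.5 CPM and the starved ρ0 libraries at 1049 and 1039 CPM. The ρ0 controls spanned the starved parental range, and the starved ρ0 libraries were far above all others. The log2 fold change was 0.82 (SE 0.14) in parental cells, under the fold threshold, and 1.83 (SE 0.14), or 3.55-fold, in ρ0 cells. The ρ0 value was 2.07 without ρ0 control replicate 1 and 1.64 without replicate 2. The control ratio of the lines, log2 0.99 (SE 0.14), lay just short of the threshold. It was 0.75 without ρ0 control replicate 1 and 1.24 without replicate 2, and 4 further alternatives also took it past 1, to 1.04 at most.

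In parental cells 5 of the 6 genes were called higher under starvation and 0 lower, where 12.7% of all tested genes were called higher and 22.1% lower. In ρ0 cells 4 of 6 were called higher and 0 lower, where the shares of all genes were 4.22% and 8.19%. All 6 had both starved libraries above both controls in each line, which 41.9% of tested genes had in parental and 32.9% in ρ0 cells. The median log2 fold change of the 6 was 1.55 in parental and 1.60 in ρ0 cells, against -0.07 and -0.02 over all tested genes. Since the genes were chosen with these contrasts known, nothing is read from the counts. STC2 in parental cells (1.26) and INHBE in ρ0 cells (1.38) passed the fold threshold by the least, and VEGFA in parental cells (0.82) and INHBA in ρ0 cells (0.89) came closest to it without passing.

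**Figure D2:**
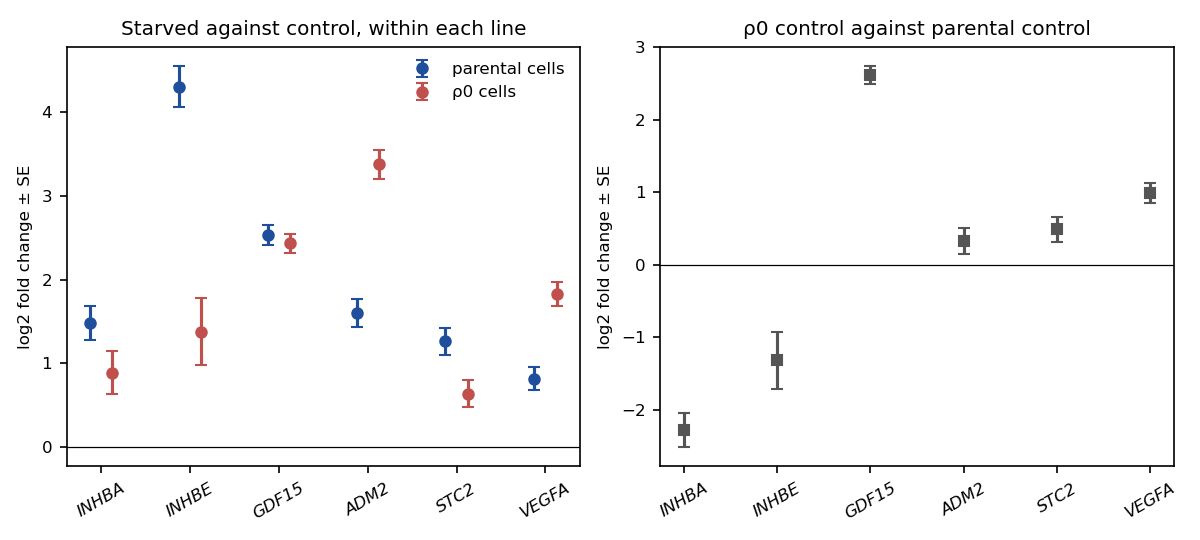
Log2 fold change of each factor with its SE, from the fit to all 8 libraries. On the left, starved against control cells of each line, where the points of GDF15 nearly coincide (2.53 and 2.43) and those of INHBE lie farthest apart (4.31 and 1.38). On the right, ρ0 against parental controls, from -2.28 for INHBA to 2.62 for GDF15.

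The difference between the starvation responses, ρ0 minus parental on the log2 scale, ran from strongly negative to strongly positive. It was -2.93 (SE 0.54) for INHBE, -0.63 (SE 0.23) for STC2 and -0.60 (SE 0.33) for INHBA. GDF15 was at -0.10 (SE 0.16). VEGFA was at 1.01 (SE 0.19) and ADM2 at 1.77 (SE 0.23). As a description, by the rule used for differences over all genes (the adjusted p alone), ADM2 and VEGFA counted as higher and INHBE as lower, where 21.6% of tested genes were higher and 18.8% lower. Without ρ0 control replicate 1, STC2 (-0.77) and INHBA (-0.81) also passed, which makes 5, with INHBE at -2.88, GDF15 at -0.071, VEGFA at 1.251 and ADM2 at 1.54. Without replicate 2, INHBE was at -3.01, STC2 at -0.50, INHBA at -0.33, GDF15 at -0.15, VEGFA at 0.78 and ADM2 at 2.04. With limma-voom and a weight for each group, INHBE was no longer called. The difference shares its control libraries with both starvation comparisons and with the comparison of the controls.

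**Figure D3:**
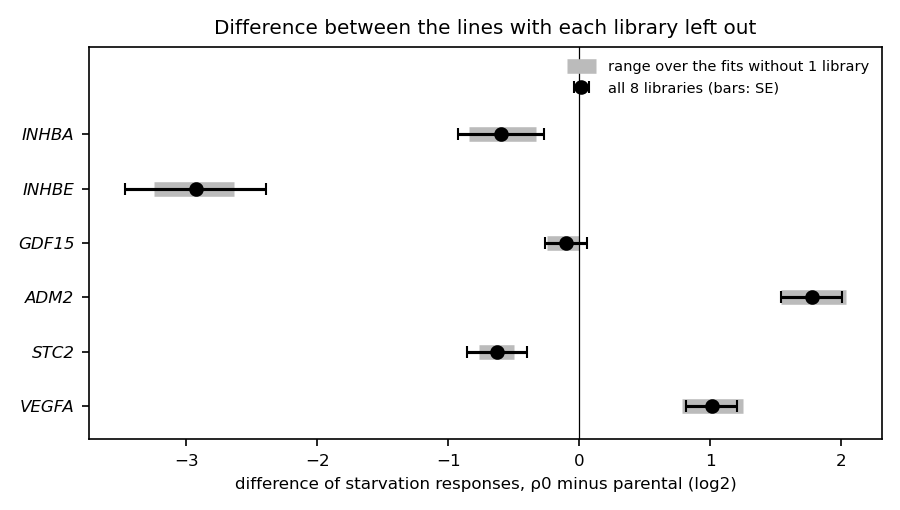
Difference between the starvation responses (ρ0 minus parental, log2) for each factor, with points and SE bars from all 8 libraries and grey bands for the range over the 8 fits that each left out 1 library. The bands of INHBE, INHBA and STC2 stay below 0, those of ADM2 and VEGFA stay above it, and that of GDF15 lies between -0.24 and 0.

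Control cells of the lines differed in both directions. GDF15 was called higher in ρ0 controls, INHBA and INHBE were called lower, and ADM2 (log2 0.33, SE 0.18), STC2 (0.49, SE 0.17) and VEGFA were not called. Without ρ0 control replicate 1 ADM2 was at 0.57 and STC2 at 0.63, and without replicate 2 at 0.096 and 0.39. Of all tested genes 13.6% were called higher and 17.3% lower. In starved cells the ratio of group means, ρ0 over parental, was 5.72 for GDF15, 4.30 for ADM2 and 3.99 for VEGFA. It was 0.908 for STC2, while INHBA was 7.35 and INHBE 19.1 times as high in starved parental as in starved ρ0 cells. GDF15 and VEGFA were lowest in parental controls, overlapped between starved parental and ρ0 control cells, and were highest in starved ρ0 cells. ADM2 and STC2 had both starved groups above both controls, with starved ρ0 cells highest for ADM2 and starved parental cells highest for STC2. INHBA and INHBE were highest in starved parental cells and lowest in ρ0 controls. Across the 8 libraries the log2 CPM of GDF15 and VEGFA had a Pearson r of 0.958, INHBE and INHBA 0.885, and INHBA and VEGFA -0.403. These are descriptions, since the 8 points share 2 lines and 2 treatments.

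Levels of different genes were compared per kilobase of the longest protein-coding transcript of GENCODE release 29. VEGFA and GDF15 were the most abundant in every group. VEGFA was at 42.0 CPM per kilobase in parental controls and 295 in starved ρ0 cells, and GDF15 at 7.46 and 247. In starved parental cells INHBE (2.80), INHBA (2.66) and ADM2 (2.57) reached similar levels per kilobase, above STC2 (1.29). In starved ρ0 cells ADM2 was at 11.0 CPM per kilobase, against 1.17 for STC2, 0.362 for INHBA and 0.146 for INHBE. A 1.38 log2 change of INHBE in ρ0 cells thus stayed at a level per kilobase about that of the unstarved parental cells (0.141).

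**Figure D4:**
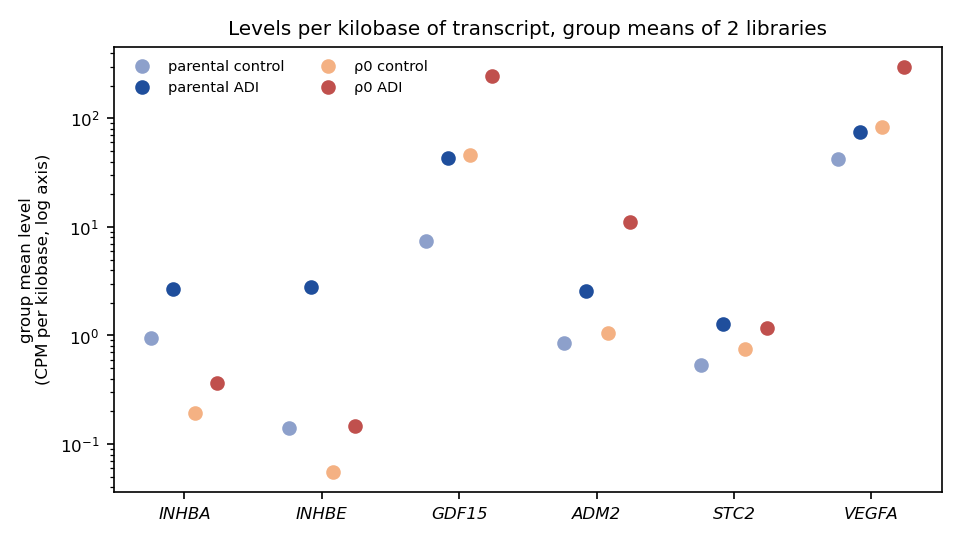
Group mean level of each factor in CPM per kilobase of transcript, on a log axis, each point the mean of 2 libraries. VEGFA and GDF15 lie above the other 4 genes in every group, and INHBE spans from 0.0550 in ρ0 controls to 2.80 in starved parental cells.

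The promoter set used here (GRCh38.p14) held sequences for 4 of the 6 genes, namely ADM2, GDF15, STC2 and INHBA. INHBE and VEGFA were missing from that set and were not searched. The 250 bases before the start site were searched on both strands for TGATGNAA (the core of the site that CHOP and ATF4 bind together), TGACGTCA (the cyclic AMP response element), TGANTCA (the AP-1 site) and ACGTG or GCGTG (the core to which hypoxia factors bind). Of 35116 promoters, 3.144%, 1.646%, 6.573%, 18.51% and 32.22% held these motifs in this order, and 43.21% held either hypoxia core. ADM2 and STC2 held GCGTG and none of the others, and the 250 bases of GDF15 and INHBA held none of the 5. ADM2 and STC2 are printed here because they hold the matches and lie at opposite ends of the responses, ADM2 with the largest ρ0 fold change and STC2 with the smallest. Capitals mark GCGTG or its reverse complement CACGC, and in STC2 the first pair of matches overlap by a base. Positions count back from the start site. ADM2 has its match at -225 to -221, and STC2 has matches at -235 to -231, -231 to -227 and -222 to -218. A match describes the letters only.
ADM2, chr22:50481293-50481542, plus strand: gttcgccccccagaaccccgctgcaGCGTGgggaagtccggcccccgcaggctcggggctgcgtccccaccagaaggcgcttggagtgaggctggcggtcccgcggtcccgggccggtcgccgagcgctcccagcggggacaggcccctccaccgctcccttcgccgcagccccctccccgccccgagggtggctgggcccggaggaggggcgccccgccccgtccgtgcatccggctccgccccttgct
STC2, chr5:173328415-173328664, minus strand: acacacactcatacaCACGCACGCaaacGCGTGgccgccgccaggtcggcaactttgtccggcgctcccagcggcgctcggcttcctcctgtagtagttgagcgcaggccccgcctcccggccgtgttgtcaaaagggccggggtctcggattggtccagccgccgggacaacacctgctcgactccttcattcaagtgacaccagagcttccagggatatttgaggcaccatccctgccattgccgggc

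The other genes of these pathways were taken from lists of 87 partner genes, of which 71 were tested. In parental cells 16 were called higher and 18 lower under starvation, in ρ0 cells 17 higher and 9 lower, with median log2 fold changes of 0.10 and 0.38. Of all tested genes 12.7% were called higher and 22.1% lower in parental cells, and 4.22% and 8.19% in ρ0 cells. The counts of each list below stand beside these same shares, no set test was run, and nothing is read from the counts. Adjusted p-values are from edgeR's quasi-likelihood test with Benjamini-Hochberg adjustment over all 15262 genes. Among 11 tested activin family ligands and antagonists, 4 were higher and 2 lower in parental cells, and 0 higher and 3 lower in ρ0 cells. FSTL3, which binds and blocks activins, rose by 2.71 on the log2 scale in parental cells (SE 0.23, adjusted p 5.06e-05), from 27.1 to 177 CPM. In ρ0 cells FSTL3 went from 104 to 204 CPM (0.98, SE 0.22), just under the fold threshold. In parental cells FST, encoding the activin antagonist follistatin, rose by 1.40 (SE 0.24, adjusted p 0.00146). GDF11, an activin-related ligand, rose there by 1.10 (SE 0.09, adjusted p 4.21e-05), or 0.98 and 0.94 with upper quartile and total-count scaling. NOG, an antagonist of bone morphogenetic proteins, fell by 2.09 in parental cells (SE 0.14, adjusted p 2.04e-05). The ligand BMP4 fell by 2.07 in ρ0 cells (SE 0.17, adjusted p 0.000201), as did INHBB, the βB activin subunit, by 1.14 (SE 0.21, adjusted p 0.00425), the latter to -0.76 without ρ0 control replicate 2. The remaining calls, named after their values were seen, were BMP2, higher in parental cells, and the inhibin subunit INHA, lower in both lines at under 1 CPM.

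Among 11 receptors and SMADs of the activin and TGF-β pathways, 4 were lower in parental cells and 1 in ρ0 cells, and 0 were higher in either. The co-receptor TGFBR3 fell by 2.81 (SE 0.09, adjusted p 4.87e-06), from 72.5 to 10.4 CPM in parental cells, and the activin receptor ACVR1C fell by 2.27 (SE 0.38, adjusted p 0.00122). TGFBR2, the type II TGF-β receptor, fell by 1.55 (SE 0.20, adjusted p 0.000376) and the signal carrier SMAD3 by 1.24 (SE 0.08, adjusted p 1.51e-05). ACVR1C was the gene called in ρ0 cells (-1.25, SE 0.32, adjusted p 0.0174), where 4 alternatives ended the call. ACVR2A and ACVR1B, receptors that bind activin A, averaged 9.52 and 31.8 CPM in parental controls. The receptor genes for GDF15, GFRAL and RET, were not tested, with at most 1 and 3 counts in any library.

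For the calcitonin family 4 of 9 genes were tested. ADM, encoding adrenomedullin, the peptide closest to ADM2, rose by 1.23 in parental cells (SE 0.18, adjusted p 0.000672), from 114 to 267 CPM, and differed by 0.19 in ρ0 cells. RAMP1, which pairs with the receptor of these peptides, fell by 2.23 in parental (SE 0.25, adjusted p 0.000163) and 2.41 in ρ0 cells (SE 0.24, adjusted p 0.000389). The receptor genes called lower, named after their values were seen, were CALCRL in parental cells, from 21 and 18 counts to 0 and 1, and CALCR in ρ0 cells, from 36 and 43 counts to 4 and 8. RAMP2 and RAMP3 had at most 1 and 0 counts.

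In the IGF axis, on which STC2 acts, 1 of 11 tested genes was higher and 5 lower in parental cells, against 4 higher and 1 lower in ρ0 cells. IGFBP4, an IGF-binding protein that PAPPA cleaves, fell by 3.61 in parental cells (SE 0.15, adjusted p 6.64e-06), from 1023 to 83.7 CPM, and PAPPA itself fell by 1.82 (SE 0.17, adjusted p 7.63e-05). IGFBP6 fell by 1.48 (SE 0.54, adjusted p 0.0432), a call that 6 of the 8 fits without a library lost. IGFBP6 held 329 and 270 counts in parental controls, 71 and 114 in starved parental cells, and 8531 and 2969 in ρ0 controls. The 4 groups share the estimate of spread, so its SE is not that of the parental libraries alone. In ρ0 cells IGFBP1 rose by 2.35 (SE 0.10, adjusted p 3.57e-05) and IGFBP3 by 2.07 (SE 0.25, adjusted p 0.000813), the latter from 172 to 720.0 CPM. IGF2R, a receptor that clears IGF2, rose by 1.09 in ρ0 cells (SE 0.30, adjusted p 0.0216), and was at 0.66 without ρ0 control replicate 2. In all, 3 of the 8 fits without a library and 1 other alternative lost the IGF2R call. PAPPA2, a second IGF-releasing protease, rose by 3.27 in parental cells (SE 0.22, adjusted p 1.92e-05). It also rose in ρ0 cells, from 2 and 1 counts to 29 and 20, a ratio of 18.2 (95% interval 5.88 to 91.4, for counting error only), a call lost with group weights (adjusted p 0.128 in limma-voom). The other lower calls, named after their values were seen, were IGFBP1 and IGFBP5 in parental cells and IGFBP2 in ρ0 cells.

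NRP1, a co-receptor of VEGF-A, fell by 1.03 in parental cells (SE 0.14, adjusted p 0.00048), from 303 to 148 CPM, and 6 alternatives left it short of the fold threshold (-0.98 at the least). KDR, the main signalling receptor of VEGF-A, rose by 1.66 in ρ0 cells (SE 0.14, adjusted p 0.000236), from 6.41 to 20.2 CPM, and was at 0.96 in parental cells. In all, 0 of 7 tested genes were higher and 3 lower in parental cells, and 1 higher and 1 lower in ρ0 cells. PGF, lower in both lines, and FLT1, lower in parental cells, make up the count and were named after their values were seen. Of 5 listed proteases that process protein precursors, MBTPS1 was lower in parental cells (-1.27, SE 0.25, adjusted p 0.00287) and none was called in ρ0 cells. Whether MBTPS1 acts on any of the 6 factors was not tested.

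Among 10 other secreted stress factors, 3 were higher in parental and 5 in ρ0 cells, and 0 lower. METRNL, a secreted factor with metabolic and immune roles, rose by 1.81 in parental (SE 0.12, adjusted p 2.23e-05) and 2.21 in ρ0 cells (SE 0.13, adjusted p 9.29e-05). ANGPTL4, a lipoprotein lipase inhibitor, rose by 2.36 in parental cells alone (SE 0.23, adjusted p 9.83e-05), with a response difference of -2.36. It went from 2.09 to 10.8 CPM there, and was at 15.8 CPM in both control and starved ρ0 cells. The chemokine gene CXCL8 rose by 2.64 in ρ0 cells (SE 0.16, adjusted p 0.000109), from 20.5 to 127 CPM. Parental cells held more of it, at 447 CPM in controls and 256 CPM under starvation (log2 -0.81, SE 0.15). The cytokine gene LIF rose by 1.16 in ρ0 cells (SE 0.11, adjusted p 0.000303). The EGF receptor ligand AREG rose by 1.41 in ρ0 cells (SE 0.21, adjusted p 0.00194). In parental cells it was called from 4 to 12 counts per library (1.27, SE 0.48, adjusted p 0.0468), and 9 alternatives ended that call. IL6, named after its values were seen, was the fifth called in ρ0 cells.

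Of 12 stress transcription factors 7 were higher in each line. ATF3 rose by 4.22 in parental (SE 0.20, adjusted p 9e-06) and 2.02 in ρ0 cells (SE 0.19, adjusted p 0.000305). XBP1, a regulator of the unfolded protein response, rose by 2.53 in parental (SE 0.16, adjusted p 1.6e-05) and 1.68 in ρ0 cells (SE 0.15, adjusted p 0.000305). DDIT3 rose by 1.86 in ρ0 cells (SE 0.19, adjusted p 0.00045) and by 1.27 in parental cells (SE 0.19, adjusted p 0.000825). ATF5 rose by 2.09 in parental cells (SE 0.20, adjusted p 8.78e-05), from 8.26 to 35.3 CPM. In ρ0 cells ATF5 was at 28.9 CPM in controls and 30.7 CPM under starvation. NUPR1, a stress-induced nuclear protein, rose in parental cells from 3 and 3 counts to 34 and 36, a ratio of 13.6 (95% interval 5.93 to 38.2, for counting error only), and by 2.13 in ρ0 cells (SE 0.16, adjusted p 0.000172). ATF4 itself, named after its values were seen, was at 161 and 539.8 CPM in control and starved parental cells and at 172 and 320.4 CPM in ρ0 cells. It was called in parental cells (1.75) and not in ρ0 cells (0.89). Its response difference, ρ0 minus parental, was -0.85 (SE 0.20, adjusted p 0.0136), with 4151 and 6237 counts in the ρ0 controls. Whether that call holds with a library left out was not checked.

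**Figure D5:**
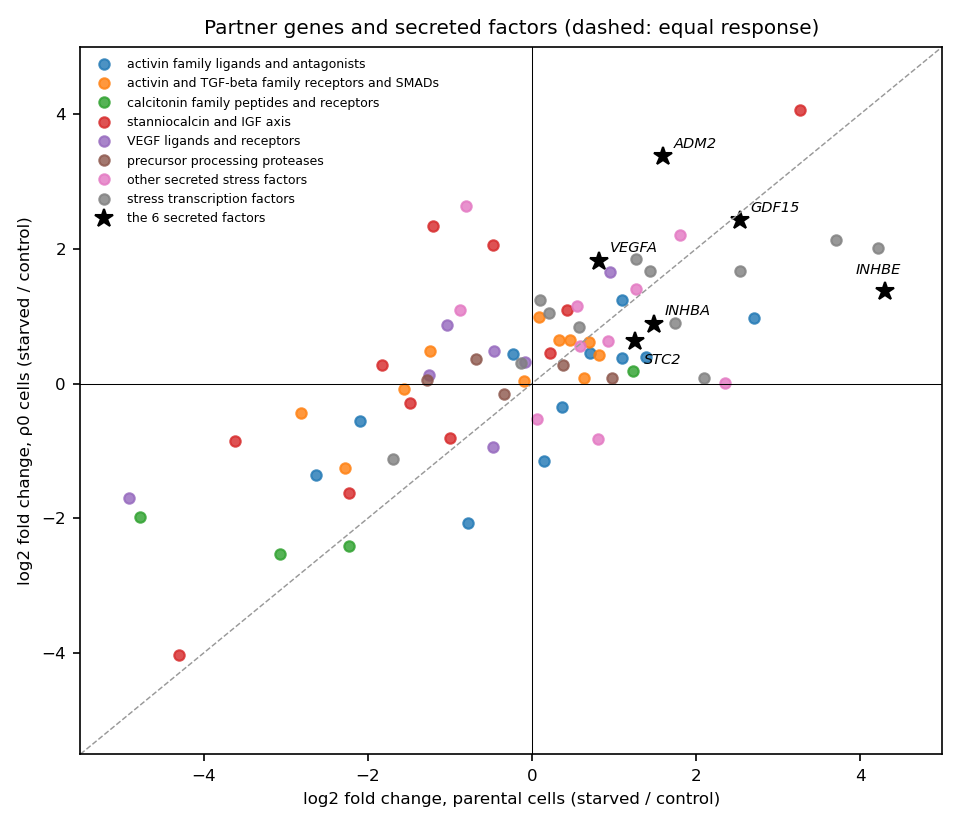
Log2 fold change with starvation in parental cells (horizontal) and ρ0 cells (vertical) for the 71 tested partner genes, coloured by list, and the 6 secreted factors (stars). The dashed line marks equal responses. GDF15 lies on it, ADM2 and VEGFA lie above it, and INHBE lies far to the right of it at 4.31 and 1.38.

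By Pearson correlation of log2 CPM over the 8 libraries, the 3 genes most like each factor were taken from those with a mean of at least 10 CPM. They were C1orf50 (r 0.9984), ZBTB49 and DENND5A for INHBE, and CBX6 (0.9975), ZBTB39 and ZNF623 for INHBA. They were ADORA2B (0.9951), PRR13 and HPS1 for GDF15, and ATP2B1 (0.9945), CEP120 and SPRY4 for ADM2. For STC2 they were IMPA1 (0.9963), ZNF639 and GSK3A, and for VEGFA CDC42EP2 (0.9977), ECI1 and CYB5R4. With 8 libraries in 4 groups such values are a likeness of 4 group levels and carry no p. ADORA2B, an adenosine receptor gene, was at 56.3, 117, 116 and 210.5 CPM in parental control, starved parental, ρ0 control and starved ρ0 cells, with the middle pair of groups close together as for GDF15.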

How the data were processed

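RNA-seq of 8 libraries was analysed. The authors deposited 1 table of counts, the number of reads assigned to each gene symbol with no scaling. The submitters' processing notes name hg19, Bowtie and Partek, without versions or roles. The annotation and whether counting used strand are not given in the sources used here, so reads of INHBA and of INHBA-AS1 on its other strand cannot be told apart. No column of the table was left unmapped. The 6 genes and the partner lists were chosen with earlier results of these data known.

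The tools were R 4.3.3 and edgeR 4.0.16, with filterByExpr, TMM scaling and the quasi-likelihood test on all 8 libraries with 1 mean per group (4 residual degrees of freedom, prior 3.40, biological coefficient of variation 12.4%). SEs were derived from each log2 fold change and its F statistic. The 4 groups shared the estimate of spread, so SEs and calls in parental cells also carry the spread of the ρ0 controls. Partner genes were named if called in a starvation contrast at a mean of at least 1 CPM, up to 4 per list and contrast. Alternatives used DESeq2 1.42.0, limma 3.58.1 (voom), other scalings and filters, a replicate block, fits to 1 line and each library left out. Voom with group weights was added after seeing the data. The scripts were tested on simulated data. Depth limits INHBE most, at 4 to 12 counts in 6 libraries. Protein sequences were not used here.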

Additional observations from a re-analysis of the deposited data

Results flagged for a closer look

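Of the 6 secreted factors and the 32 partner genes named by rule, 27 had a starvation response that differed between the lines. The threshold was an adjusted p under 0.05 in the interaction test of edgeR's quasi-likelihood fit over all genes tested. At that threshold 21.6% of all tested genes were higher and 18.8% lower. The partner genes were named for a call in a starvation contrast, and the difference is made from those contrasts, so nothing is read from the count. Values are ρ0 minus parental on the log2 scale. Of the 27, the secreted factors were INHBE (-2.93), ADM2 (1.77) and VEGFA (1.01), which were chosen with this contrast known and are given as a description. In the activin and TGF-β pathways they were FSTL3 (-1.73), NOG (1.55), FST (-0.998), GDF11 (-0.72), BMP4 (-1.29), INHBB (-1.30), TGFBR3 (2.38), TGFBR2 (1.48) and SMAD3 (1.73). In the calcitonin and IGF lists they were ADM (-1.04), IGFBP4 (2.77), PAPPA (2.10, a fitted value from 4 to 8 counts in each ρ0 library), IGFBP1 (3.55) and IGFBP3 (2.54). Among VEGF receptors, proteases and other secreted factors they were NRP1 (1.90), KDR (0.70), MBTPS1 (1.33), ANGPTL4 (-2.36), CXCL8 (3.44) and LIF (0.60). Among transcription factors they were ATF3 (-2.20), NUPR1 (-1.57, a fitted value from 3 counts in each parental control library), XBP1 (-0.86) and ATF5 (-2.01). The calls of 8 of these, FST, ADM, PAPPA, KDR, MBTPS1, LIF, NUPR1 and XBP1, were lost without at least 1 of the libraries, and over all alternatives that ended them the adjusted p lay between 0.0513 and 0.307. Every difference involves the ρ0 control libraries, whose spread was the widest. All groups held 2 libraries, so single outlying libraries could not be tested for.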

How the results depend on the processing

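No secreted factor changed direction under any alternative tried, and no call of a partner gene named by rule turned to the opposite direction. Genes called for the response difference numbered 6167, and 3513 to 10277 in the fits without 1 library. Partner genes called for it numbered 40, and 25 to 55, and secreted factors 3, and 3 to 5 (5 without ρ0 control replicate 1). With at least 10 counts required in every library, 2876 genes in place of 4718 and 18 partner genes in place of 31 were called between the control lines, since fewer genes were tested, and INHBE was not tested. Samples with the same number did not deviate together (r from -0.053 to 0.039 over 6 pairs of groups), so the numbers were not taken as pairs. With the replicate block 5297 genes were called in parental and 1839 in ρ0 cells, and the counts for the secreted factors remained at 5 and 4. Total counts and upper quartile scaling moved the median of all genes in parental cells from -0.07 to -0.23 and -0.19. The INHBE response in ρ0 cells was not called with total counts, DESeq2 or group weights, or in 6 of the 8 fits without 1 library, and its response difference was not called with group weights. With 2 libraries per group, a fit without 1 assumes that the lone library varies like the other groups. Depth limits INHBE in ρ0 cells.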

Other observations

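Genes beside the secreted factors on the chromosome (RefSeq order, GRCh38.p14, nearest gene of the table on each side) were read as raw counts, in the order parental control, starved parental, ρ0 control and starved ρ0 cells, after the values of the factors were known. MIOX, encoding an enzyme of inositol breakdown next to ADM2, held 3 and 2, 9 and 8, 2 and 0, and 20 and 14 counts, the highest in starved ρ0 cells like ADM2, at a small fraction of its reads. INHBA-AS1, which overlaps INHBA, held 3 and 3, 14 and 11, 2 and 1, and 1 and 1 counts, highest in starved parental cells. INHBC, an activin subunit gene next to INHBE, held at most 4 counts, again in starved parental cells. MIR3189, within GDF15, held at most 6, in a starved ρ0 library. Whether these reads come from the neighbours or from the factors' own transcripts was not tested. The neighbours BOD1 (beside STC2) and PGPEP1 (beside GDF15) were expressed at 2210 to 7061 and 610 to 1423 counts. BOD1 held 2451 and 2210 counts in parental controls and 4312 and 4711 under starvation, when STC2 was higher too. In ρ0 cells BOD1 held 3189 and 4010 counts in controls and 7061 and 5689 under starvation. PGPEP1 was at 1416 and 1257 counts in parental controls and 610 and 668 under starvation, when GDF15 was higher.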
